A study of Mus musculus with 2 samples.

Results

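Ccl21 is a secreted CC chemokine whose receptor is CCR7, and in the mouse it is encoded by several near-identical gene copies. The values of 3 of these copies, Ccl21b, Ccl21c and Gm13304, are described here in liver RNA from 1 control array and 1 ischemia/reperfusion (I/R) array. The copies were chosen by transcript name and for the rise of their signals on the I/R array, so the rise itself is a description and no test was made of it. They are 3 of the 118 probes that the scanner files name by a RefSeq protein-coding transcript (NM_ probes), among 59692 probes measured in all. Each copy had 1 probe, and each probe had 1 spot per array. Ccl21b was named by NM_011335, Ccl21c by NM_023052 and Gm13304 by NM_001193666.

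The animals were male C57BL/6J mice aged 10 to 12 weeks, and the sources used here name no transgene or deletion in either group. The I/R sample was a mixture of RNA from 3 livers after partial (70%) hepatic ischemia for 60 min and reperfusion for 6 h. The other sample is called a control by its label and a sham operation by the study, and the sources used here do not state how many livers it held. RNA was hybridized in a single colour to an Arraystar Mouse LncRNA v2.0 array, which was designed for long noncoding RNAs and, by the study's description, for protein-coding transcripts as well. Coding probes may therefore be present under identifiers that do not name a gene, and the NM_ probes are only the coding probes named by a RefSeq transcript in the files used here. The 2 arrays lay on the same slide at different positions, so position and condition cannot be told apart, and mixing the livers left no measure of the spread between mice.

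Ccl21 is known for guiding dendritic cells and naive T cells, which carry CCR7, into lymphatic vessels and lymph nodes. It is made mainly by lymphatic endothelium and by stromal cells of lymphoid tissue, and its basic tail holds it on heparan sulfate at the cell surface. Ccl19 is the other CCR7 ligand, and Ackr4 is an atypical receptor that takes up both ligands without signalling. In the liver, lymphatic vessels run in the portal tracts. The mouse copies arose by duplication of a segment of chromosome 4, and the plt mouse strain lost the copy that serves lymph nodes (Ccl21a) together with Ccl19.

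The RefSeq table of GRCm38.p6 lists 7 Ccl21 copies, all assigned to chromosome 4. Of these, 5 (Ccl21d, Gm13304, Ccl21b, Gm10591 and Ccl21a) lie in the segment from Ccl27a to Ccl21a, which holds 48 annotated genes, 18 of them protein-coding. The gene models of Ccl21d, Gm13304, Gm10591 and Ccl21c are each 1131 bases long, that of Ccl21a is 1132 bases and that of Gm1987 is 1134 bases. Ccl21b is annotated differently, with 2 transcripts over 83706 bases. The files name 3 of the 7 copies, and the levels of Ccl21a, Ccl21d, Gm10591 and Gm1987 were not analysed here. RefSeq lists the older names Ccl21b and Ccl21c as synonyms of Gm13304, so the symbols of these copies have changed hands between annotations.

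The sequences before the annotated starts are alike for some of the copies but not for Ccl21b, and Ccl21c has no entry. The 250 bases before the annotated start are given below in lower case, 5′ to 3′ on the strand of the gene, from RefSeq GRCm38.p6 for both measured copies that have an entry. Capitals mark bases of Gm13304 that differ in the windows of Ccl21a or Ccl21d.
Gm13304 (chr4:42114537-42114786, plus strand): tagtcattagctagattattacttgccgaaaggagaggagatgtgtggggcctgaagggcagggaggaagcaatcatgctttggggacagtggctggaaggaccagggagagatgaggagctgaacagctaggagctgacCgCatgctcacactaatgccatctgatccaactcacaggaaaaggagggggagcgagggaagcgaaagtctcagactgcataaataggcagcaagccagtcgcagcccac
Ccl21b (chr4:42172870-42173119, plus strand): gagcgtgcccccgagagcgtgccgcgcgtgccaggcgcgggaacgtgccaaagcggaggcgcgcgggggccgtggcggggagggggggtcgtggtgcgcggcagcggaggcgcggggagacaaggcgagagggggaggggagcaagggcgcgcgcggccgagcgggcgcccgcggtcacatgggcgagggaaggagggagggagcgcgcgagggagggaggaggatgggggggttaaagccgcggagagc
With positions counted from 1 at the 5′ end of the Gm13304 window, the Gm10591 window was identical over 250 bases. The Ccl21d window had the single change C143T. Ccl21a carried C141T and C143T among the 249 bases that could be aligned with a shift of 1 base, so identity was 99.2%. The Ccl21b window was of a different kind, with a GC content of 78.0% against 53.6% for Gm13304 and 52.4% for the median of all 32851 RefSeq windows of this length. Without gaps, 33.1% of 248 bases matched between the Ccl21b and Gm13304 windows. This window precedes the start of the 83706-base gene model, and where the transcript NM_011335 starts within that model is not given in the table used here. The letters TATAAA were absent on both strands of all 5 windows and present in 12.4% of all windows. The NF-kappaB motif was likewise absent on both strands of the 5 windows, against 7.25% of all windows that held it. These searches cover only the letters in these windows.

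On both arrays the signals of all 3 copies passed the flag for well above background, and all 3 were higher on the I/R array. Values are first given as the processed signal, which is the background-subtracted brightness of the spot in scanner units, with the error that the scanner software assigned to it. Ccl21b gave 588 ± 58.9 on the control array and 1688 ± 169 on the I/R array. Gm13304 gave 801 ± 80.1 on the control array and 1966 ± 197 on the I/R array. Ccl21c gave 1152 ± 115 on the control array and 2548 ± 255 on the I/R array. For every copy the I/R value lay above the control value by more than both errors together. Different probes bind their targets with different strength, so the order of the 3 signals on an array is not an order of transcript levels.

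The spots themselves were clean. None of the 3 spots carried an outlier or saturation flag. Local background around them was between 31.0 and 32.0 on the control array and between 34 and 36 on the I/R array. The unprocessed median signal of the Ccl21b spot was 18.7 times its local background on the control array and 47.7 times on the I/R array. Negative-sequence probes, which match no mouse transcript, had a 95th percentile of 57.5 on the control array and 52.8 on the I/R array. The highest single spot among them reached 331 on the control array and 265 on the I/R array, so no negative-sequence spot reached the signal of a copy.

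**Figure D1:**
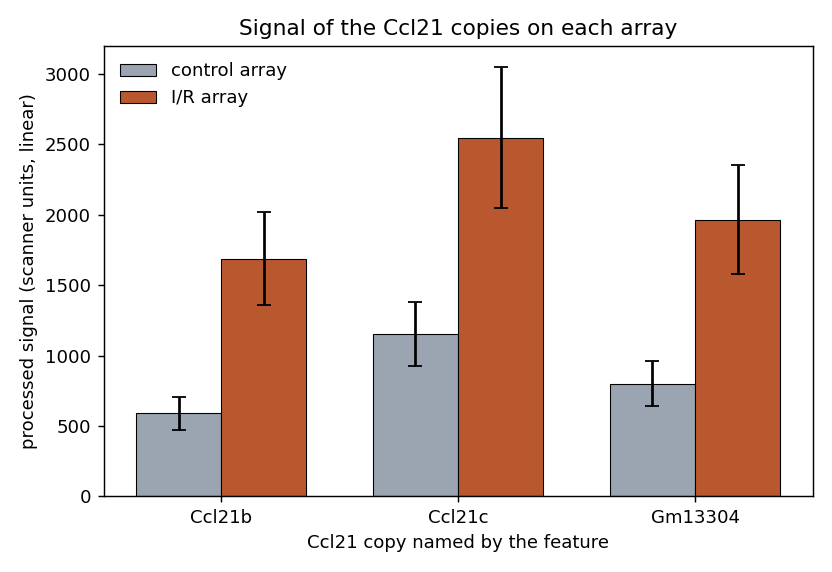
Processed signal in scanner units on a linear axis for each Ccl21 copy, with the control array in grey and the I/R array in orange (1 spot per bar). Error bars are 1.96 times the scanner error of the spot and cover spot measurement only; each I/R bar stands above its control bar with no overlap of the error bars.

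Folds are the ratio of the quantile-normalized I/R signal to the quantile-normalized control signal. The 95% measurement interval is 1.96 standard errors of the log2 fold on each side, from the spot errors of both arrays, and it says nothing of the spread between mice. The fold of Ccl21b was 2.77 (95% measurement interval 2.10 to 3.65). For Gm13304 it was 2.38 (1.80 to 3.14), and for Ccl21c it was 2.15 (1.63 to 2.84). On the log2 scale these are differences of 1.47, 1.25 and 1.11, each with a standard error of 0.20. All 3 intervals lay above 1.5-fold, the threshold of upregulation in the study's methods. The copies were chosen for their rise, so this describes them and is no support for it. With 1 array per condition no p-value can be given.

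A probe was taken as detected where both arrays flagged it as positive and significant. Among the other NM_ probes so detected, 20 of 99 were at least 1.5-fold higher on the I/R array (20.2%). Of the 79 that both arrays flagged as well above background, 12 were (15.2%). Over all probes, named or not, the share was 14.2% of the 47732 detected probes and 11.2% of the 37208 well above background. All 3 copies passed 1.5-fold, but they were chosen on this contrast, so nothing is read from that count. The NM_ probes nearest to the threshold were a probe of Gm3286 at 1.51-fold just above it and Tuba1b, an alpha tubulin, at 1.46-fold just below it. Another NM_ probe of Gm3286 had a log2 fold of 0.257, below the threshold. At the lower threshold of 0.7, B020031M17Rik stood at 0.732-fold just above and Gm6040 at 0.671-fold just below, the latter not well above background on both arrays.

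Of the 99 detected NM_ probes, 3 had a higher fold than Ccl21b, 5 than Gm13304 and 6 than Ccl21c, and the highest fold among them was 5.13. Of the 79 well above background, 0 had a higher fold than Ccl21b. The only one of these with a higher fold than Gm13304 or Ccl21c was NM_009485, a dim probe that went from 22.3 to 60.2 (2.74-fold, 1.88 to 3.97), and it is named here because its value was seen. Among all detected probes on the array, the fold of Ccl21b was above 96.6%, that of Gm13304 above 95.2% and that of Ccl21c above 94.1%. The copies lay in the upper tail of the folds, which also held many other probes.

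**Figure D2:**
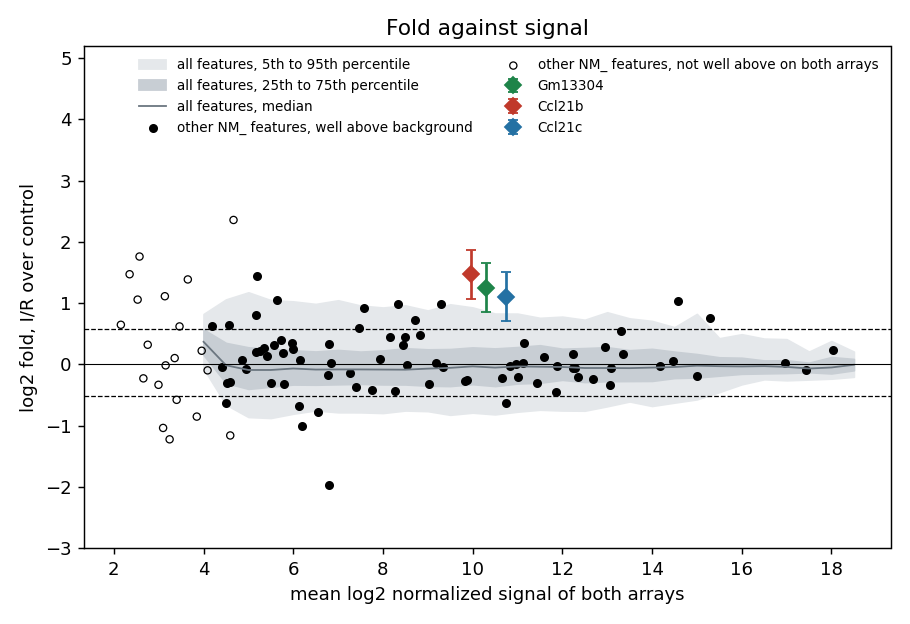
The log2 fold of I/R over control (vertical axis) against the mean log2 normalized signal of both arrays (horizontal axis); grey bands give percentiles of all probes well above background, dots are other NM_ probes, and diamonds are the 3 Ccl21 copies with 95% measurement intervals. Dashed lines mark 1.5-fold and 0.7-fold; the 3 copies lie above the 95th percentile of probes at their signal.

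Few NM_ probes had a signal similar to that of a copy. Similar signal means a mean log2 signal over both arrays within 0.5 log2 units of that copy. Ccl21b had 2 such NM_ probes, Tbp at 0.843-fold (0.791 to 0.899) and Amy2a5 at 0.831-fold (0.629 to 1.1). Tbp encodes the TATA-binding protein of the transcription machinery and Amy2a5 a pancreatic amylase. Gm13304 had 4 such probes, from Gm6710 at 0.647-fold to Gm21953 at 0.856-fold, with a median of 0.837-fold. Ccl21c had 7, from Gm6710 at 0.647-fold (0.491 to 0.854) to NM_009268 at 1.28-fold (0.969 to 1.69), with a median of 0.986-fold. Counted once each, these were 9 NM_ probes, of which 0 reached 1.5-fold and 0 reached the fold of any copy. So few probes say little, since about 1 in 10 probes of any kind at this brightness reached 1.5-fold. Within 1 log2 unit of Ccl21b, 1 of 10 NM_ probes reached 1.5-fold (NM_001008551 at 1.97-fold), and among the 20 nearest NM_ probes 3 did (15%), the highest being Jrkl at 1.98-fold.

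The unnamed probes of the same brightness give a larger comparison. Within 0.5 log2 units of Ccl21b lay 2365 probes of any kind, and 54 of them (2.28%) had a higher fold, with a median fold of 0.975 over the whole window. At least 1.5-fold was reached by 245 of these 2365 probes (10.4%), by 222 of 2190 around Gm13304 (10.1%) and by 183 of 1998 around Ccl21c (9.16%). For Gm13304, 61 of 2190 probes (2.79%) had a higher fold. For Ccl21c, 57 of 1998 probes (2.85%) did. These shares describe where the copies lie, since probes are not replicates and the copies were picked for their rise.

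**Figure D3:**
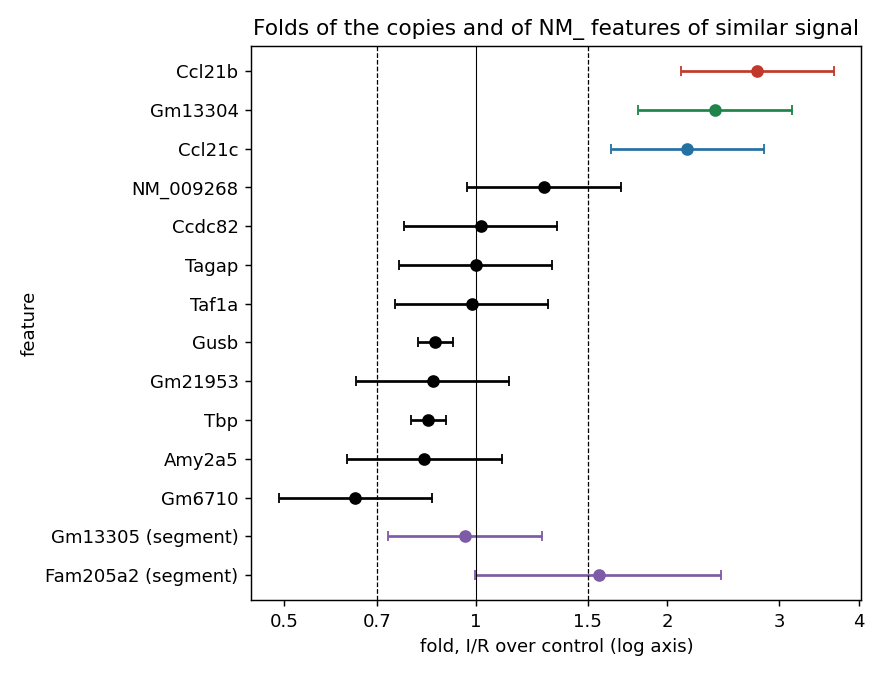
Fold of I/R over control on a log axis, with 95% measurement intervals, for the 3 Ccl21 copies (coloured, top) and the 9 NM_ probes of similar signal (black). Purple points are the other 2 genes of the duplicated chromosome 4 segment that an NM_ probe names (Gm13305 and Fam205a2). Dashed lines mark 0.7-fold and 1.5-fold. None of the 9 black points reaches 1.5-fold, and all 3 intervals of the copies, which were chosen for their rise, lie above it.

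The pattern closest to each copy was sought as the smallest distance between probes in the plane of both log2 normalized signals. Gm13304 lay 0.49 log2 units from Ccl21b and 0.64 from Ccl21c, and its nearest probe outside the copies was Gm21953 at 1.16, then Taf1a at 1.19 and Tbp at 1.20. Ccl21b and Ccl21c were 1.12 apart. NM_001008551, which went from 442 to 893 (1.97-fold), was nearer to Ccl21b at 1.0, followed by Tbp at 1.22 and Amy2a5 at 1.24. Around Ccl21c, NM_009268 at 0.80, Taf1a at 0.81 (0.986-fold) and Tagap at 0.84 (1.0-fold) were nearer than Ccl21b was. With 2 arrays this distance reflects brightness as much as fold, and among these probes only NM_001008551 exceeded 1.5-fold.

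The folds of the copies were then set against each other. The difference of log2 folds was 0.36 for Ccl21b minus Ccl21c, 0.22 for Ccl21b minus Gm13304 and 0.14 for Gm13304 minus Ccl21c. By the scanner errors the 95% intervals were -0.20 to 0.93, -0.35 to 0.78 and -0.42 to 0.71, so all 3 pairs included no difference. The scanner error is a fixed share of about 10% for spots this bright, and repeated spots give a second, measured error. Gk, Gusb and Tbp, reference genes within 1 log2 unit of a copy and with 19 to 20 usable spots each, had a pooled SD of 0.082 in log2 fold over spots (0.043 to 0.117 per gene). With that SD the difference between Ccl21b and Ccl21c ran from 0.13 to 0.59 and excluded 0. The other pairs still included 0, with -0.01 to 0.45 for Ccl21b minus Gm13304 and -0.08 to 0.37 for Gm13304 minus Ccl21c. Whether the fold of Ccl21b exceeded that of Ccl21c beyond error therefore depended on which error was used, and neither error covers the mice. The transcripts are nearly identical, the probe sequences were not used here, and sharing of 1 RNA between the probes was not tested. The 3 folds are not 3 independent measurements.

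Spots of reference genes show how far a fold could move by spot alone. Over the 20 spots of Gk, a glycerol kinase, single-spot folds ran from 0.696 to 0.921 around a fold of 0.804. Over the 19 spots of Tbp they ran from 0.778 to 0.947, and over the 20 spots of Gusb, the lysosomal beta-glucuronidase, from 0.807 to 0.901. Spreads were wider for some other reference genes. Ldhal6b, a dimmer probe, had single-spot folds from 0.319 to 0.697 around a fold of 0.586. Actb, the cytoskeletal beta-actin, had the highest fold of the 15 reference genes with repeated spots, at 2.06-fold with spots from 2.02 to 2.11, close to the fold of Ccl21c. Tuba1b was also higher on the I/R array, at 1.46-fold (1.37 to 1.57). Folds of Hprt (0.979), Ppia (1.01), Gapdh (0.938) and Rpl13a (0.871) stayed near 1.

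The place of the spots on the array was looked at as well. Within 10 rows and 10 columns of the Ccl21b spot, the 137 spots well above background had a median fold of 0.927, and 7 of them (5.11%) had a higher fold than Ccl21b. Around Ccl21c the median of 283 spots was 0.919, with 9 spots (3.18%) higher. Around Gm13304 it was 0.937 over 289 spots, with 3 (1.04%) higher. The 3 spots lay in different parts of the array, and that of Ccl21b lay in column 4, near the edge, with fewer spots around it. In each of these areas the median fold of the surrounding spots was below 1. The median over all probes well above background was also below 1, at 0.962.

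The other genes named in the duplicated segment had lower folds than the copies. The copies were chosen for their rise, so nothing is read from this order. Of the 48 genes annotated there, 5 are named in the files, Gm13304 and Ccl21b among them. Gm13305, annotated between those copies, went from 5037 to 4932 (0.962-fold, 0.729 to 1.27). Gm21953 went from 1704 to 1510 (0.856-fold, 0.649 to 1.13). Fam205a2, a dim probe, went from 19.2 to 29.2 (1.56-fold, 0.997 to 2.43). Its interval includes 1 and also overlaps the intervals of Ccl21b, Gm13304 and Ccl21c. Gm13305 and Gm21953 had intervals that included 1 and lay below the intervals of Ccl21b, Gm13304 and Ccl21c.

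Little else of the CCR7 pathway is named by an NM_ probe in the files used here. Of the 27 genes of a list around CCR7 (its ligands, receptors that take up chemokines, and the lymphotoxin and NF-kappaB genes that act upstream of lymphoid chemokines), 3 are so named and these are the copies themselves. No NM_ probe is named for Ccr7, Ccl19 or Ackr4. Probes for other genes of the list may carry identifiers without a gene name and were not analysed here. Of 63 chemokine and chemokine receptor genes, 3 are named, namely Ccl21b, Ccl21c and Ccl28. Ccl28, a mucosal chemokine that binds CCR10 and CCR3, went from 27.4 to 47.4 (1.75-fold, 1.22 to 2.51), a dim signal next to those of the copies.

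None of the markers fixed for hepatocytes (0 of 9), lymphatic endothelium (0 of 7), T cells (0 of 7), B cells (0 of 3), dendritic cells (0 of 6), macrophages (0 of 5), neutrophils (0 of 5) or stromal cells (0 of 5) is named by an NM_ probe. With no marker named, the liver label was not checked here, and neither was the share of lymphatic or immune cells. This limit comes from the naming of probes in the files used, not from what the arrays measured. In bulk RNA, more cells that make Ccl21 and more Ccl21 RNA per cell cannot be told apart.

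The rise of the copies was seen under each way of scaling the arrays. Over 10 settings on the linear scale, the fold of Ccl21b ranged from 2.62 (normexp background correction) to 3.20 (median of the NM_ probes set equal on both arrays). Gm13304 ranged from 2.25 to 2.74 and Ccl21c from 2.07 to 2.47, with the same settings at the ends. Setting the NM_ median equal shifted the median log2 fold of all probes to 0.16, against -0.01 with quantiles. Ccl21b had the highest and Ccl21c the lowest fold in all 10 settings, but much of this was fixed in advance. The 75th percentile, no normalization and the NM_ median only shift whole arrays, so all of them give the same order of folds. Spot medians, keeping flagged spots and the series table could hardly change the order, since each copy has 1 unflagged spot.

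**Figure D4:**
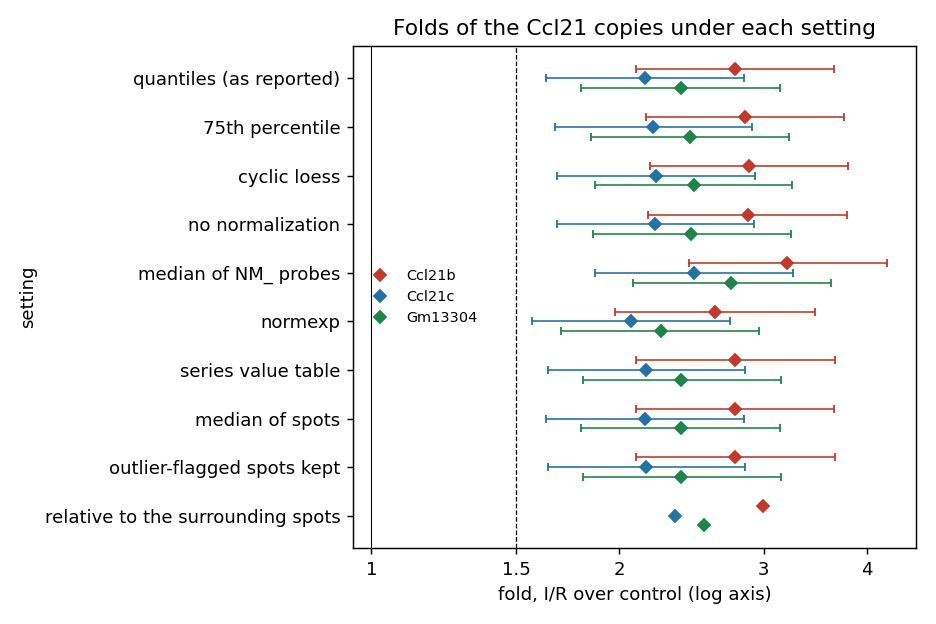
Fold of I/R over control on a log axis for the 3 Ccl21 copies under 10 settings, with 95% measurement intervals except for the setting relative to the surrounding spots. Dashed line, 1.5-fold. Every point lies above 2-fold and every interval above 1.5-fold, for copies that were chosen for their rise.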

How the data were processed

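Liver RNA of 1 control and 1 I/R sample was measured on 1 array each. The authors scanned the arrays and extracted spots with Agilent Feature Extraction 11.0.1.1 (per the processing notes of the submitters), and deposited, for each spot, an intensity with the background subtracted (the processed signal), its error and flags. The deposited series table held the same intensities for all 62513 spots within 0.1%. The methods of the study name quantile normalization, with thresholds of 1.5 and 0.7.

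Control spots, 20 negative-sequence probes and 31 other spots with an outlier flag on either array were left out, log2 values of repeated spots were averaged, and the arrays were brought to the same quantiles over 59692 probes (limma 3.58.1, R 4.3.3). Python 3.11.15, numpy 2.4.6, pandas 2.3.3 and scipy 1.17.1 did the rest. Quantile, 75th percentile and cyclic loess normalization were tested on simulated data with known folds. Normexp and the NM_ median scaling were not. Each condition has 1 array, which limits the precision: no test or p-value is given, and intervals come from the spot errors.

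Names were taken from identifiers in the files through RefSeq (GRCm38.p6), which held 112 of the 118 NM_ accessions. The scanner design uses mm9, so no probe position is given. Named genes were the copies, probes of the CCR7 and chemokine lists, the 3 NM_ probes closest to each copy, the lowest and highest fold among similar signals, and the probes next to the thresholds; other genes were chosen after their values were seen. The members and lists were chosen with earlier results of these data known. Alternatives were other normalizations, background correction, flags, thresholds and windows. The comparison with surrounding spots was chosen after seeing the data.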

Additional observations from a re-analysis of the deposited data

How the results depend on the processing

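With 1 array per condition, no sample could be left out and no error between mice exists; these values rest on 1 spot per copy and array. The folds of Ccl21b, Gm13304 and Ccl21c stayed within their measurement intervals under 9 of 10 alternatives each. These include the one relative to surrounding spots, which was chosen after seeing the data. The exception, the ratio of log2 signals, gave 1.16, 1.13 and 1.11, since it divides logarithms and is no fold. Among the 9, the median of spots, keeping flagged spots and the series table could hardly move a copy. Each copy has 1 unflagged spot, and the series table held the same intensities. The number of other NM_ probes at least 1.5-fold higher fell from 20 to 7 with normexp, 4 with the ratio of log2 signals, 12 with probes well above background on both arrays and 9 with a 2-fold threshold. The number at 0.7-fold or lower fell from 11 to 3, 1, 6 and 5 in the same order. The last 3 of these alternatives are stricter by construction. Normexp was run with 50 scanner units added to each signal, which draws the folds of dim probes toward 1. How much of the fall came from that offset was not tested. The differences between copies kept their direction under all 10 alternatives each. Alternatives that only shift whole arrays or only change the handling of repeated or flagged spots could hardly alter these differences. The share of NM_ probes of similar signal with a lower fold was 100% for each copy, also under the alternatives that kept to NM_ probes. Among all probes of similar signal, named or not, the share was at least 97.1%. The NM_ share rests on 2 to 7 probes within 0.5 log2 units. Both shares rest on the rise for which the copies were chosen, so they say nothing about stability. No paired analysis was possible because each condition has 1 sample.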
